A study of Mus musculus with 9 samples.

Results

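The interleukin-1 family ligands and receptors were followed in mouse liver through 15 probe sets of 9 genes, out of 41782 probe sets measured. A probe set is a group of short array probes read as 1 value for a transcript. Members were the probe sets that the array annotation pairs with exactly 1 gene symbol among Il1a, Il1b, Il1rn, Il1r1, Il1r2, Il1rap, Il1rl1, Il18, Il18bp and Il33. Of these 10 genes Il1rl1 was not analysed here. Il1rap was read by 5 probe sets, Il1rn by 3 and each of the other genes by 1. Total liver RNA of c57Bl/6 mice was hybridised to Affymetrix arrays, with 4 arrays from mice on a control diet and 5 from mice on a Harlan-Teklad high-fat diet (HFD) of 21% fat, which supplied 42% of calories. All mice had chow before the study, and the labels name no allele, sex, age, time on diet or batch. Whether the arrays come from different animals is not in the labels, and p-values therefore measure only array-to-array spread, some or all of which may be technical. Each value is a log2 difference from its probe set's own baseline, given in the labels and design text as the median over all samples. Levels of different probe sets therefore cannot be set against each other, and the liver label could not be checked by marker levels.

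Interleukin-1 alpha and beta are inflammatory cytokines that share the signalling receptor encoded by Il1r1, which pairs with the accessory protein of Il1rap to pass the signal on. Il1rn encodes an antagonist that occupies this receptor without signalling, and Il1r2 a decoy receptor that traps the ligands. Interleukin-18, made mostly by macrophages and epithelia, is held inactive outside cells by the binding protein of Il18bp. Interleukin-33 is a nuclear alarmin released from damaged cells, and hepatocytes answer interleukin-1 by secreting acute phase proteins.

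The RefSeq starts of the genes with the largest differences are shown first, as the 250 bases before each start on the gene's strand (build GRCm38.p6), because Il18bp was the member that passed the test, Il1r1 differed most in size, and Il1a and Il1b are neighbours whose arrays separated by diet. All 10 members were found in the RefSeq promoter table, with 15 starts. Capitals mark matches, on either strand, to TATAAA, to GGGCGG (the GC box), to TTCNNNGAA (the GAS element of STAT factors) or to the NF-kappaB consensus, and no marked matches overlap. The array does not tell which start a transcript came from.
Il1r1 first start, chr1:40224830-40225079, + strand: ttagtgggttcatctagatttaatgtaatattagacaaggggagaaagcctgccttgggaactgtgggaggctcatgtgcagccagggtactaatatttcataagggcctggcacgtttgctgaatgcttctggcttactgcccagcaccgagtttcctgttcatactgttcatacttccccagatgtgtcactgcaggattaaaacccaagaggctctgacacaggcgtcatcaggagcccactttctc
Il1r1 second start, chr1:40266336-40266585, + strand: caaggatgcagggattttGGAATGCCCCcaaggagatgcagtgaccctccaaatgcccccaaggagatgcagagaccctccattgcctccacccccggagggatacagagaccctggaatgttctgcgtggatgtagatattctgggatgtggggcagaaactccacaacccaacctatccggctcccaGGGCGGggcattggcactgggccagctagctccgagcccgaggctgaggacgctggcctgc
Il18bp, chr7:102018233-102018482, - strand: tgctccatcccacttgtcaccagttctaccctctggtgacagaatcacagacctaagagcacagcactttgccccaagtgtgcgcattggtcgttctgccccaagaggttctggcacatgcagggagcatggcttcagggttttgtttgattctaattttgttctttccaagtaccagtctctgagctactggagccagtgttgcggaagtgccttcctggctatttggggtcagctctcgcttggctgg
Il1a, chr2:129309973-129310222, - strand: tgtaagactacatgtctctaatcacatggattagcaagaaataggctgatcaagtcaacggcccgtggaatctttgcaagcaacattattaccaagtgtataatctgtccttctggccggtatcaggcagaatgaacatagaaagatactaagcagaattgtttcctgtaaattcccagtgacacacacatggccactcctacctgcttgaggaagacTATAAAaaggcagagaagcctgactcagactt
Il1b, chr2:129371140-129371389, - strand: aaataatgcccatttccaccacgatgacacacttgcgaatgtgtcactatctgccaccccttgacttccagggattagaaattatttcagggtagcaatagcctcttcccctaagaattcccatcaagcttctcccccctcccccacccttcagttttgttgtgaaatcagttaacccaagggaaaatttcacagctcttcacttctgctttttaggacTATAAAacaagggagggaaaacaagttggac

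In these windows Il1a and Il1b each held TATAAA shortly before the start, at bases -32 to -27 and -31 to -26. The second start of Il1r1 held GGGCGG at -61 to -56 and an NF-kappaB match on the opposite strand at -232 to -223, whereas its first start and the Il18bp start held none of the 4 motifs. Of 32851 RefSeq starts of all genes, 12.4% held TATAAA in a window of the same length, 32.7% GGGCGG, 7.02% TTCNNNGAA and 7.25% the NF-kappaB consensus. A match is a string of letters and not a site shown to be bound.

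Whether the diet groups differed in these genes was asked with limma over all 41782 probe sets, with Benjamini-Hochberg adjustment and a threshold of 0.05. Of the 15 probe sets 1 fell in HFD, that of Il18bp, and 0 rose, against a background of 3.26% of all probe sets called (1.23% lower and 2.04% higher). At an unadjusted p under 0.05 there were 4 lower and 1 higher, against 16.4% of all probe sets. The unmoderated test called 0 of the 15 lower and 0 higher. The median difference of the 15 was -0.09, beside -0.0078 over all probe sets, and 8 were negative. Control and HFD arrays were fully separated in 3 of the 15. Those of Il1a and Il1b lay lower in HFD, beside 3.50% of all probe sets separated in that direction, and 1 Il1rap probe set lay higher, beside 4.50%. In 10 of the 15 the estimated difference was under 0.25 in size.

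**Figure D1:**
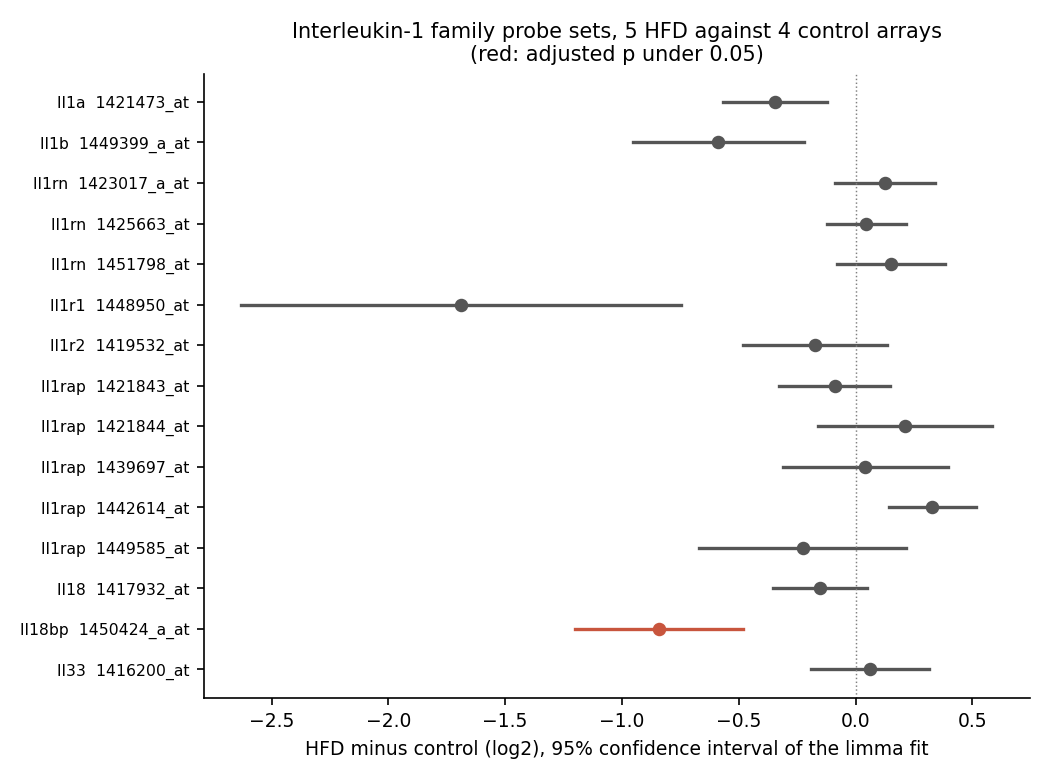
Differences between HFD and control (HFD minus control, log2, horizontal axis) for the 15 probe sets of the family, with the 95% confidence interval of the limma fit as a line. The red point, Il18bp at -0.84, is the probe set past the adjusted threshold; Il1r1 at -1.69 has the widest interval, from -2.63 to -0.75.

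Il18bp, whose product neutralises interleukin-18, was lower in HFD (probe set 1450424_a_at). The control arrays stood at 0.57, 0.56, 0.32 and 0.01, and the HFD arrays at -0.45, -0.60, -0.64, 0.02 and -0.70, each in the order of replicates. The 4 other HFD arrays lay below every control array, while HFD replicate 4 lay just above control replicate 4. The group means were 0.37 ± 0.27 (SD, n = 4) and -0.48 ± 0.29 (SD, n = 5), a difference of -0.84 ± 0.16 (SE), or 1.79-fold lower (limma adjusted p = 0.0202). The exact permutation of the 126 splits of the arrays gave an unadjusted two-sided p of 0.0317, where the smallest possible p is 0.0159. The call ended without control replicate 1, 2 or 3 or HFD replicate 3, with differences of -0.77, -0.78, -0.86 and -0.80 and adjusted p between 0.0591 and 0.0763 in limma.

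Markers of the liver's resident macrophages, the Kupffer cells, moved with Il18bp. Of 18 probe sets for the 13 markers 12 fell and 0 rose. All 18 had an unadjusted p under 0.05 in limma, beside 16.4% of all probe sets. Defining markers among those called were Clec4f (-1.39 ± 0.33), Timd4 (-1.16 ± 0.20) and Vsig4 (-1.89 ± 0.38). The marker mean lay between 0.15 and 1.30 in the control arrays and between -1.26 and 0.10 in the HFD arrays. Across the 9 arrays, which share tissue and hybridisation, Il18bp correlated with this mean at r = 0.974 (Spearman's rank correlation 0.950), and at r = 0.910 after each group's mean was subtracted. The overlapping arrays of Il18bp, control replicate 4 and HFD replicate 4, were those with Kupffer means of 0.15 and 0.10, the closest pair between the groups. Endothelial markers were also lower, with 4 of 18 probe sets called (Fcgr2b in 3 and Stab1 in 1), a mean between 0.08 and 0.53 in control and between -0.90 and 0.19 in HFD, and r = 0.924 with Il18bp. The part of these cell markers in the result was not tested, and in whole liver fewer cells of a type and less RNA per cell cannot be told apart. No marker can be called at 0, because centred values hold no level. The Kupffer count of 12 became 4, 3, 3 and 14 when control replicates 1 to 4 were dropped in turn, and 7, 5, 4, 15 and 9 when HFD replicates 1 to 5 were. The endothelial count of 4 became 0 when a control array was dropped, and 6, 1, 0, 9 and 2 when HFD replicates 1 to 5 were dropped in turn.

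**Figure D2:**
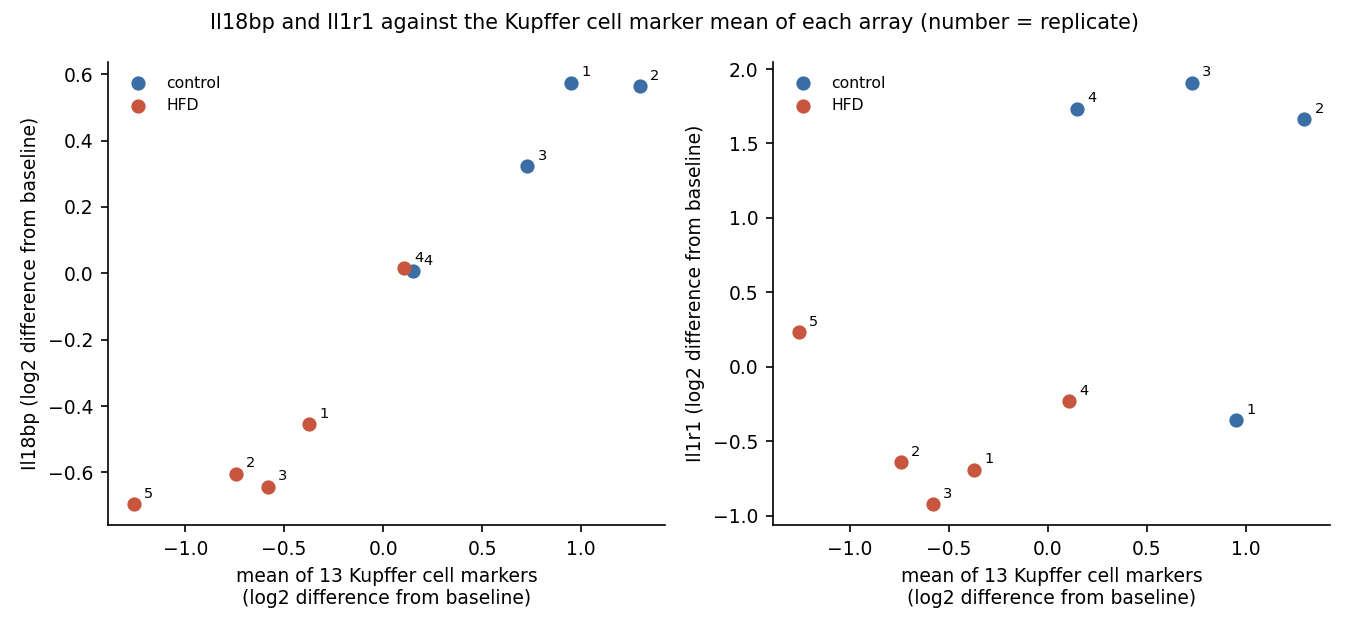
Il18bp (left) and Il1r1 (right) in each array (vertical axis, log2 difference from baseline) against the mean of 13 Kupffer cell markers (horizontal axis, log2 difference from baseline), with control arrays in blue, HFD arrays in red and replicate numbers beside the points. Il18bp follows the marker mean over all 9 arrays (r = 0.974), whereas for Il1r1 control replicate 1 has a high marker mean and a low Il1r1 value (r = 0.556).

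Interleukin-18 itself was not called. Its probe set (Il18, 1417932_at) gave 0.28, 0.01, 0.27 and 0.22 in the control arrays and -0.01, 0.26, -0.02, -0.01 and -0.03 in the HFD arrays. Control replicate 2 and HFD replicate 2 each lay with the other group, and the other arrays separated by diet. The difference was -0.15 (95% confidence interval -0.35 to 0.05, limma adjusted p = 0.452). For the subunits of the interleukin-18 receptor, Il18r1 differed by 0.12 ± 0.08 and the probe sets of Il18rap by -0.17 ± 0.09 and -0.09 ± 0.07, with adjusted p of 0.506, 0.381 and 0.575.

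Il1r1, the signalling receptor, had the largest difference of the family and the most uneven control group (1448950_at). The control arrays stood at -0.36, 1.67, 1.91 and 1.73, and the HFD arrays at -0.69, -0.64, -0.92, -0.23 and 0.23. Control replicates 2, 3 and 4 lay at least 1.43 above every HFD array, and control replicate 1 lay within the HFD range, so that the groups overlapped. The means were 1.24 ± 1.07 (SD, n = 4) and -0.45 ± 0.46 (SD, n = 5). The difference of -1.69 ± 0.43 (SE), 3.22-fold on the linear scale, did not pass over all probe sets (limma adjusted p = 0.0608, unadjusted exact permutation p = 0.0476). Its size was at the 99.8th percentile of all probe sets, and so was the SD of its control arrays, which 89 probe sets exceeded.

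The side of the threshold on which Il1r1 lay changed with single arrays and with the set of probe sets tested. Without control replicate 1 the difference was -2.22 (limma adjusted p = 0.00243) and without HFD replicate 5 it was -1.86 (adjusted p = 0.0492). Without any 1 of the other arrays it lay between -1.74 and -1.46, with adjusted p from 0.0803 to 0.177. With 1 value per gene the limma adjusted p was 0.0498 with the most variable probe set and 0.0492 with probe sets averaged. With the _x_at and _s_at probe sets left out, which also means fewer tests, it was 0.0636.

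**Figure D3:**
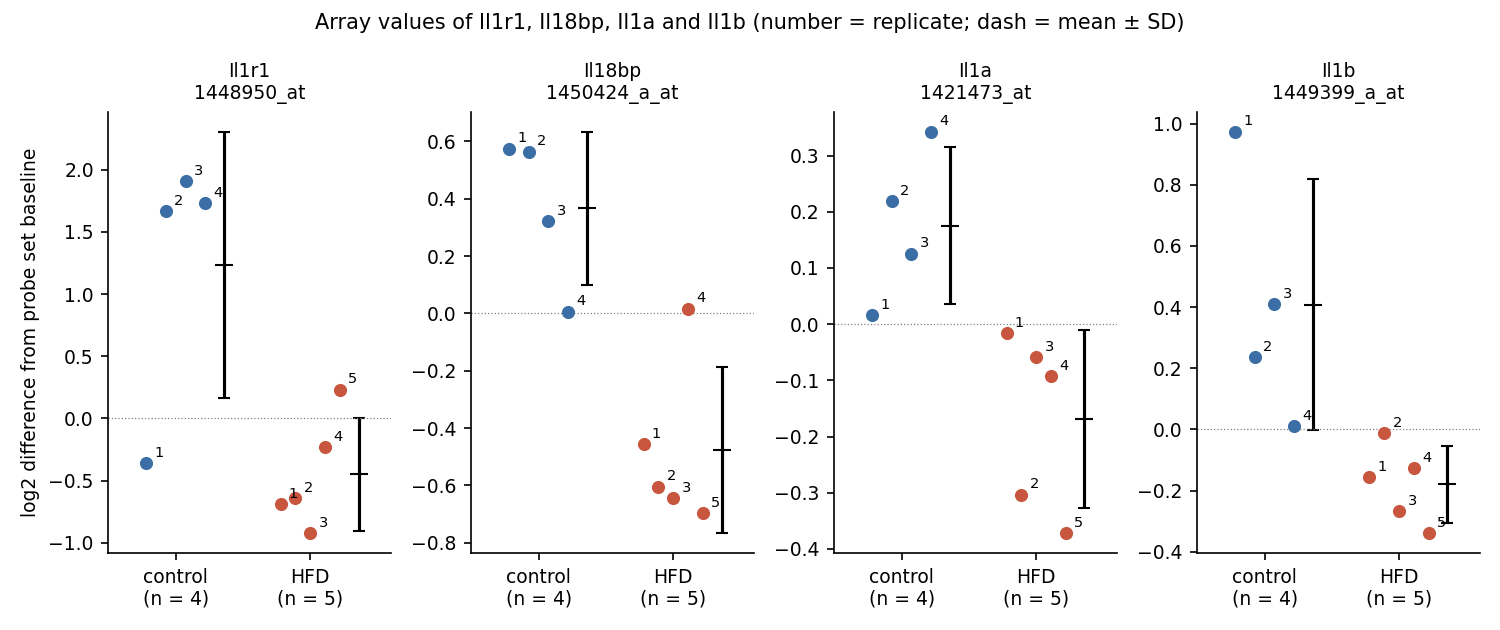
Values of Il1r1, Il18bp, Il1a and Il1b in each array (vertical axis, log2 difference from the baseline of the probe set, scaled separately per gene), with control arrays in blue (n = 4), HFD arrays in red (n = 5), replicate numbers beside the points and the mean ± SD of each group in black. Control replicate 1 is the lowest control array for Il1r1 (-0.36) and the highest for Il1b (0.97).

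**Figure D4:**
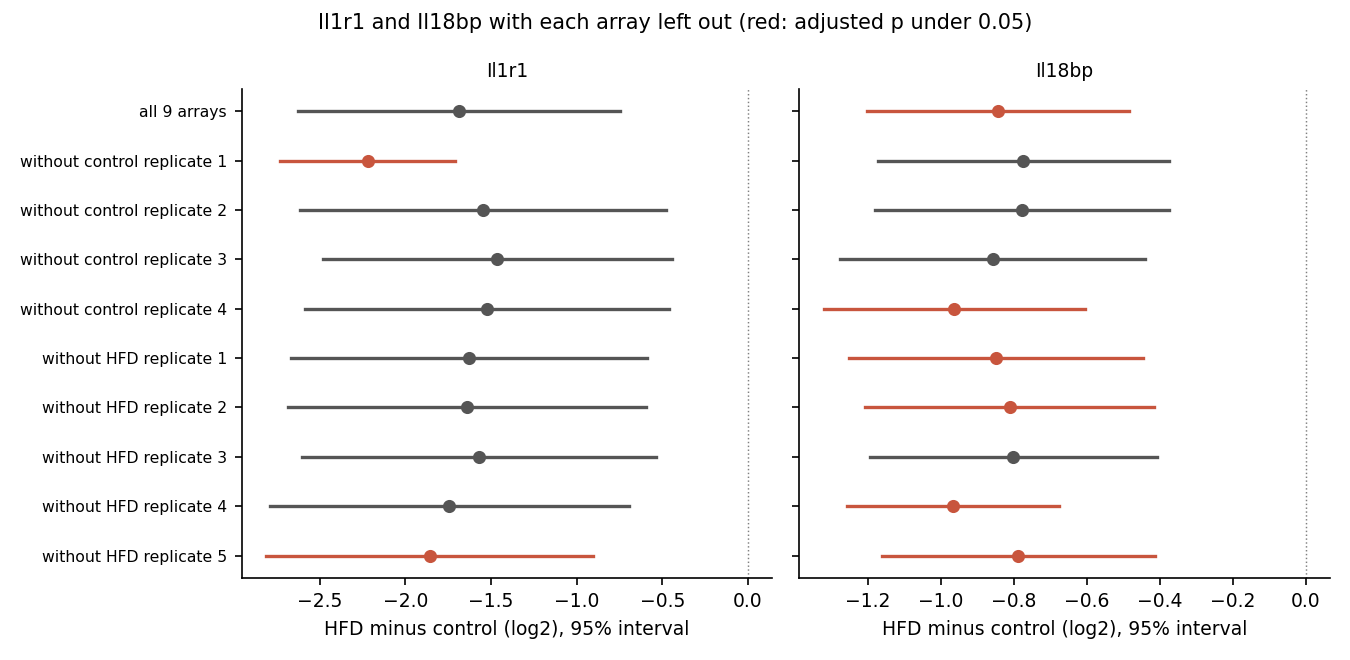
HFD minus control (log2, horizontal axis) with the 95% confidence interval of the limma fit for Il1r1 (left) and Il18bp (right), from all 9 arrays and with each array left out in turn. Red marks an adjusted p under 0.05: Il1r1 passes without control replicate 1 or HFD replicate 5, and Il18bp loses its call without control replicate 1, 2 or 3 or HFD replicate 3.

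Cell markers were set beside Il1r1 in the same way. Its correlation with the Kupffer marker mean was 0.556 over the 9 arrays and -0.271 after the group means were subtracted, and with the endothelial mean 0.482 and -0.209. In control replicate 1 the Kupffer mean was 0.95, above that of control replicates 3 and 4. The mean of 8 measured hepatocyte markers lay between 0.05 and 0.27 in control and between -0.22 and -0.03 in HFD and correlated at 0.787 with Il1r1 and at 0.750 with Il18bp, or 0.374 and 0.031 after the group means were subtracted. The part of these markers in the Il1r1 values was not tested. Of 17 hepatocyte probe sets 1 fell, for Hnf4a, the hepatocyte transcription factor (-0.91 ± 0.18), and the 3 other Hnf4a probe sets were not called. This count of 1 became 0 without any 1 control array or HFD replicate 3 and without the _x_at and _s_at probe sets, and 2 without HFD replicate 5.

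The genes that followed Il1r1 most closely over the 9 arrays were Snhg5 (r = 0.973), a host gene of small nucleolar RNAs, Mtss1 (0.965), a membrane-bending protein, Pax1 (0.961), Arhgef26 (0.960), Il6ra (0.960), the interleukin-6 receptor, and Gpcpd1 (0.959), a phosphodiesterase. Within the 6 arrays with the lowest Il1r1 values these correlations lay between 0.668 and 0.953, lowest for Snhg5 and highest for Arhgef26. Each had control replicate 1 as its lowest control array, as Il1r1 did, which a choice by correlation with Il1r1 favours. Gpcpd1 stood at -0.33, 1.20, 1.43 and 1.17 in control and differed by -1.18 ± 0.39, and Arhgef26 by -0.95 ± 0.32. Il6ra spanned only -0.12 to 0.23 over all arrays and differed by -0.16 ± 0.08. None of these 6 probe sets was called, with limma adjusted p from 0.0598 for Mtss1 to 0.357 for Pax1.

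Il1r1 lies in a row of related receptor genes on chromosome 1 in the RefSeq annotation, in the order Il1r2, Il1r1, Il1rl2, Il1rl1, Il18r1 and Il18rap. Of its measured neighbours none was called. Il1r2, the decoy receptor (1419532_at), differed by -0.17 (95% confidence interval -0.48 to 0.13, limma adjusted p = 0.597), with control arrays between -0.11 and 0.07 and HFD arrays between -0.64 and 0.10. HFD replicates 1 and 2 were the low arrays, and the other HFD arrays lay near the controls. Il1rl2, the receptor of interleukin-36, differed by -0.04 ± 0.07 and -0.03 ± 0.09 in its probe sets.

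Il1rap, the accessory protein shared by the receptors for interleukin-1, interleukin-33 and interleukin-36, gave probe sets that disagreed. In 1442614_at the control arrays stood at -0.27, -0.36, -0.12 and -0.26 and the HFD arrays at 0.04, -0.02, 0.28, 0.02 and 0.07. Every HFD array lay above every control array in this probe set, and its difference of 0.33 ± 0.08 did not pass (limma adjusted p = 0.0657, unadjusted exact permutation p = 0.0159). The other 4 probe sets overlapped between the groups and differed by -0.09 ± 0.11, 0.21 ± 0.17, 0.04 ± 0.16 and -0.23 ± 0.20, with adjusted p from 0.596 to 0.932. Averaged over its probe sets Il1rap differed by 0.05 ± 0.07 (adjusted p = 0.755).

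The ligands of Il1r1 were lower in every HFD array than in every control array without passing the test. Il1b (1449399_a_at) stood at 0.97, 0.24, 0.41 and 0.01 in control and at -0.16, -0.01, -0.27, -0.13 and -0.34 in HFD. Control replicate 1 was high, and control replicate 4 lay only just above HFD replicate 2. The difference was -0.59 ± 0.17 (limma adjusted p = 0.0900, unadjusted exact permutation p = 0.0159). Without control replicate 1 it was -0.40 (adjusted p = 0.114).

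Il1a (1421473_at) stood at 0.02, 0.22, 0.13 and 0.34 in control and at -0.02, -0.30, -0.06, -0.09 and -0.37 in HFD. The groups were again apart, by the narrow step between control replicate 1 and HFD replicate 1. Il1a differed by -0.34 ± 0.10, or 1.27-fold (limma adjusted p = 0.104, unadjusted exact permutation p = 0.0159). Over the 9 arrays the Kupffer marker mean correlated at 0.772 with Il1b and at 0.751 with Il1a, and at 0.385 and 0.263 once group means were subtracted. Neutrophil markers had 1 of 9 probe sets lower, S100a9 (-1.97 ± 0.45), and their mean lay between 0.07 and 0.30 in control and between -0.90 and -0.10 in HFD. S100a9 lost its call on dropping a control array or HFD replicate 2 or 3, 2 neutrophil probe sets were called without HFD replicate 1 or 4, and the part of these cells in the ligand values was not tested.

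Il1rn, the receptor antagonist, which is made in secreted and intracellular forms, was not called in any of its 3 probe sets. They differed by 0.13 ± 0.10, 0.05 ± 0.08 and 0.15 ± 0.11, with limma adjusted p of 0.584, 0.826 and 0.532. The widest of their intervals ran from -0.08 to 0.38, so that a 2-fold rise or fall of the array values lay outside all of them. Centred values give no signal over background, so the intervals do not bound the change of the transcript itself. Il33 (1416200_at) ranged from -0.06 to 0.29 in control and from -0.09 to 0.36 in HFD and differed by 0.06 (95% confidence interval -0.19 to 0.32, adjusted p = 0.848). Control replicate 4 and HFD replicates 3 and 4 were its high arrays, across both diets.

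Of 14 probe sets for 10 further members of the family, 0 were called in limma and 0 had an unadjusted p under 0.05. The lowest p-values belonged to Sigirr, a receptor that dampens interleukin-1 signalling (0.22 ± 0.11, adjusted p = 0.348), Il1f9, an interleukin-36 ligand (-0.18 ± 0.09, adjusted p = 0.359), and Il18rap. Downstream of the receptor, 0 of 74 probe sets for 25 signalling genes were called. An unadjusted p under 0.05 was found in 10 of the 74, beside 16.4% of all probe sets. The median difference of the 74 was -0.02. Nearest to the threshold were Rel, an NF-kappaB subunit (-0.35 ± 0.12, adjusted p = 0.158), Ikbkg, the regulatory subunit of the kinase that frees NF-kappaB (-0.34 ± 0.13), and Mapk9, a stress kinase, whose probe sets disagreed (0.23 ± 0.08, -0.31 ± 0.13 and 0.02 ± 0.24). Without control replicate 1, 1 of the 74 was called higher.

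Among genes of the inflammasome and of cytokine processing, 1 of 27 probe sets rose and 0 fell, beside the 3.26% of all probe sets. This was Casp8, a protease of cell death that can also process interleukin-1 beta. It stood at -0.22, -0.11, -0.24 and -0.14 in control and at 0.42, 0.35, 0.37, 0.14 and 0.11 in HFD. The groups did not overlap, and the difference was 0.46 ± 0.09 (limma adjusted p = 0.0194). The call ended without control replicate 1, 2 or 3 or HFD replicate 3. Casp1, the classical processing enzyme of interleukin-1 beta and interleukin-18, differed by -0.36 ± 0.16 (adjusted p = 0.317).

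Of 44 probe sets for 29 genes that respond to interleukin-1, 0 were called in limma, while 38 had a negative difference. The median was -0.27 beside -0.0078 over all probe sets. An unadjusted p under 0.05 in limma was found in 17 of the 44, beside 16.4% of all probe sets. The 17 included repeated probe sets of Socs3, Saa1, Vcam1, Nfkbiz and Steap4. They also included a Saa4 probe set that was higher in HFD (1.06 ± 0.38, limma adjusted p = 0.188). Another Saa4 probe set differed by 0.08 ± 0.24. The lowest p-values belonged to Orm1, an acute phase glycoprotein (-0.70 ± 0.17, adjusted p = 0.0511), Vcam1, an adhesion molecule (-0.81 ± 0.20, adjusted p = 0.0521), and Saa1, the acute phase serum amyloid A (-1.87 ± 0.47, adjusted p = 0.0574). Saa1 stood at 1.00, 2.73, 1.90 and 0.00 in control and at -0.86, -0.84, 0.00, 0.15 and -0.75 in HFD. Its high arrays were control replicates 1, 2 and 3, and control replicate 4 lay among the HFD arrays. The probe sets called lower were 6 under array weights, 6 when the least variable probe sets were left out, 5 after a further quantile normalization, and at most 4 with 1 array left out. The mean of this list correlated with Il1r1 over the 9 arrays (Spearman's rank correlation 0.783) and, with group means subtracted, at r = 0.587.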

How the data were processed

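RMA summaries were quantile normalized by the authors and each probe set was shifted to its median over all samples, per the labels and design text; the submitters' processing notes name RMA, with no version. The deposited values were read as log2 differences because RMA returns log2 values; no log base is stated. Mirrored middle values around 0 (within 1e-05) were found for 92.8% of probe sets. A median over an even number of samples leaves such a pair, whereas a median over these 9 arrays would leave a value at 0. The baseline was thus not the median of these 9 arrays alone, and which samples entered it is not known. Centring keeps group differences and removes levels, so that no filter on low signal was possible. Of 41842 probe sets 60 controls were left out. The annotation paired 32801 with 1 symbol, 862 with several and 8119 with none.

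The HFD and control arrays (5 and 4) were set against each other with R 4.3.3 and limma 3.58.1, using lmFit and eBayes without covariate or mean-variance trend, every probe set on its own, with Benjamini-Hochberg adjustment over 41782. List scores are means of gene means per array. Replicate numbers follow deposition order. The number of arrays limits the precision. Arrays were simulated for this comparison with independent normal noise in each probe set (41782 probe sets, 200 changed, 5 simulations). Of changes of 2, 98.2% were recovered, 87.5% of 1 and 36.7% of 0.5 (log2), with 3.29% of calls false. Variation shared between probe sets was left out, so these rates need not hold for the real arrays. Members, lists and tests were chosen with earlier results of these data known. Named were all members, called probe sets of the pathway lists (or the 3 with the lowest p), and the 6 genes nearest to Il1r1 by correlation, over all values and over residuals. Of the cell marker lists, those moving with a result are named. The 4 interleukin-36 genes were matched under their older symbols. Some listed genes are not analysed here.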

Additional observations from a re-analysis of the deposited data

Results flagged for a closer look

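In 58 sets of values (the 2 diet groups for each member probe set and each gene list) the array farthest from the rest was checked by Dixon's ratio of gap to range, which chance passes in about 1 in 20 sets, and 4 passed. For Il1r1 control replicate 1 (-0.36) stood apart from the other control arrays, which lay between 1.67 and 1.91. For Il18 HFD replicate 2 (0.26) stood apart from the other HFD arrays, which lay between -0.03 and -0.01. The means of the mast cell markers set apart control replicate 3 (-0.0777) and HFD replicate 2 (-0.12), with no probe set of that list called.

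Control replicate 1 was set apart by this ratio in 1.41% of all probe sets, beside 1.17%, 1.20% and 1.53% for control replicates 2, 3 and 4. The pattern of Il1r1, with control replicate 1 among or below the HFD arrays and the other control arrays all above them, occurred in 709 of 41782 probe sets (1.70%), and the same pattern with control replicate 2, 3 or 4 in 478, 554 and 825. A gap of over 1 between those controls and every HFD array was found in 1 probe set, that of Il1r1, for control replicate 1, and in 0 for each of the other control arrays. This gap was chosen after the Il1r1 values were seen.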

How the results depend on the processing

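Il18bp was lower under every alternative run, and its call also ended in the unmoderated test (-0.84, adjusted p = 0.102) and with both control replicate 1 and HFD replicate 5 left out (-0.72, adjusted p = 0.0805). Il1r1 was lower under every alternative run. It passed the threshold under array weights (-1.82, adjusted p = 0.0345), with the least variable 25% of probe sets left out (-1.69, adjusted p = 0.0305) and with the most variable probe set per gene (-1.69, adjusted p = 0.0498). It also passed with that pair of arrays left out (-2.39, adjusted p = 0.000325). These were its lowest control and highest HFD arrays, so that a larger difference was fixed beforehand. Il1r1 did not pass with array medians subtracted (adjusted p = 0.0611), after a further quantile normalization (adjusted p = 0.0529), with robust eBayes (adjusted p = 0.0942) or in the unmoderated test (adjusted p = 0.204). With 1 array left out it ranged from -2.22 to -1.46. The count of family probe sets lower was 2 under array weights, with the least variable 25% left out, and with either rule of 1 value per gene, 0 at an adjusted p under 0.01, and 0 to 2 with 1 array left out. The count higher was 1 after a further quantile normalization (Il1rap 1442614_at, 0.33, adjusted p = 0.0472). Over all probe sets 512 were lower and 851 higher. These counts were 139 and 230 at an adjusted p under 0.01, 323 and 526 with a change of at least 1.5-fold, and with 1 array left out 187 to 611 and 359 to 870. The sign turned in some probe sets that were never called. Il1rap 1439697_at was -0.0186 after a further quantile normalization, -0.0715 without the same pair, and between -0.0632 and 0.163 with 1 array left out (negative without control replicate 1, HFD replicate 3 or HFD replicate 5). Il1rap 1421843_at was 0.00031 without the pair, and Il1rap 1421843_at and 1449585_at were 0.0535 with probe sets averaged. Il33 lay between -0.0012 (without HFD replicate 3) and 0.141 with 1 array left out. The cause of these changes was not tested. No paired analysis was possible because the labels give no replicate numbers. Centred values give no signal over background, so that low expression could not be told from absence of change.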

Other observations

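Within the diet groups some family members varied in opposite directions. After the group means were subtracted, Il1r1 and Il1b correlated at -0.811 over the 9 arrays. Control replicate 1 was the lowest control array for Il1r1 and the highest for Il1b. Il1r1 and Il1rap 1421844_at correlated at -0.832, and control replicate 1 was also the highest control array of that probe set (0.42). The other Il1rap probe sets correlated with Il1r1 at -0.526, 0.186, -0.032 and -0.23. Il18bp and Il1b correlated at 0.503 on the same residuals. Only a few of the pairs of member probe sets are given here. The correlations are descriptions of 9 arrays that share tissue and hybridisation.

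On residuals from the group means the genes nearest to Il1r1 were Acot12 (r = 0.966), a cytosolic acyl-CoA thioesterase, Gp5 (0.966), a platelet glycoprotein, Krr1 (0.962), Snhg5 (0.959), Kcng1 (0.955), a potassium channel subunit, and Dppa3 (0.952). Without the subtraction, their r with Il1r1 over the 9 arrays ran from 0.057 for Acot12, 0.122 for Gp5 and 0.144 for Kcng1 up to 0.973 for Snhg5. Within the 6 arrays with the lowest Il1r1 values it lay between 0.115 for Kcng1 and 0.668 for Snhg5. None of these genes was called between the diets in limma (adjusted p from 0.198 to 0.866). Acot12 stood at -0.57 in control replicate 1 and between -0.07 and -0.02 in the other controls.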
